A study of Mus musculus with 8 samples.

Results

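The regions described here are the accessible sites closest to the centromeres of the mouse autosomes, in NIH3T3 cells. They are the 814 merged ATAC-seq peak regions on chromosomes 1 to 19 that start below 5 Mb, out of 45915 regions in all, with the stretch of chromosome 11 from 3 to 3.2 Mb left out. They were set beside the 746 regions that start between 5 and 7 Mb of the same autosomes. The rule names positions only and uses no measured value, though it was set, with its omission on chromosome 11, by someone who knew earlier results of these data.

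NIH3T3 is an immortalised fibroblast line derived from mouse embryos. One group of 2 ATAC-seq libraries came from cells kept on G128 for 24 h and the other group of 2 from cells kept on G2 for 24 h. Per the labels, NIH3T3 cells were grown in DMEM with newborn calf serum, and no other agent or allele separates the groups. The labels do not say what G128 and G2 stand for, nor whether libraries of a group came from separate cultures, so the p-values measure only the spread between these libraries, which may be technical. The 4 RNA samples were not used here, and the cell line was not checked against marker genes, because no annotation of the files' build, mm9, was used.

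Mouse autosomes carry their centromere at one end. Centromeres and the flanking heterochromatin consist of long arrays of satellite repeats that are packed tightly in most cells, and the assembled sequence of a chromosome begins only after a placeholder for them. The first stretches after that placeholder can hold repeat arrays, segmental duplications and copies of genes. These are hard to assemble, and short reads often match them equally well at several places. ATAC-seq uses the Tn5 transposase to insert adapters where DNA is exposed, so that reads pile up over promoters, enhancers and other open sites. For reads with several matches, the sources used here do not give the treatment.

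The peak lists of G128 held 32540 and 37695 entries, and those of G2 held 42358 and 41585. The depth of the libraries, read as the mean background pileup behind the caller's p-values, was 1.05 and 1.41 overlapping fragments in G128 and 1.10 and 1.37 in G2. Replicate 1 was thus the shallower library of both groups. The strength of a site is given as its summit over the background, the highest pileup in the region divided by this mean, and it is a ratio. It was higher on G2 over all 27768 regions found in all 4 libraries, by 0.33 on the log2 scale, and differences between groups are given relative to that shift unless stated.

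The proximal windows were about as densely filled with accessible sites as the next windows inward. They held 21.5 regions per Mb of nominal length and the windows from 5 to 7 Mb held 19.6. The median region was 409.5 bp wide against 401 bp, beside 380 bp over all regions. Accessible sequence came to 503 kb in the proximal windows, and 38.5 kb of it was a single region at the start of chromosome 9. Without that region it came to 464 kb, against 443 kb from 5 to 7 Mb. Regions wider than 2 kb were 15 of 814 (1.84%), against 23 of 746 (3.08%) in the inner windows and 1.19% of all regions. No test was made over regions, since regions of one library are not replicates.

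The regions were spread unevenly over the chromosomes. Chromosome 19 held 131, chromosome 11 held 116 and chromosome 16 held 96. Chromosome 3 had none, chromosome 1 had 3 and chromosome 14 had 4. On chromosome 1 the first region started at 4775316, far inside the window, while on chromosomes 2, 4, 9, 10, 17 and 18 the first lay within 0.1 Mb of the 3 Mb mark. Chromosome 8 held 45 proximal regions and none from 5 to 7 Mb, whereas chromosome 19 held 226 from 5 to 7 Mb, the window in which its count was higher still. A comparison of the windows pooled over chromosomes therefore compares different chromosomes in different proportions.

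**Figure D1:**
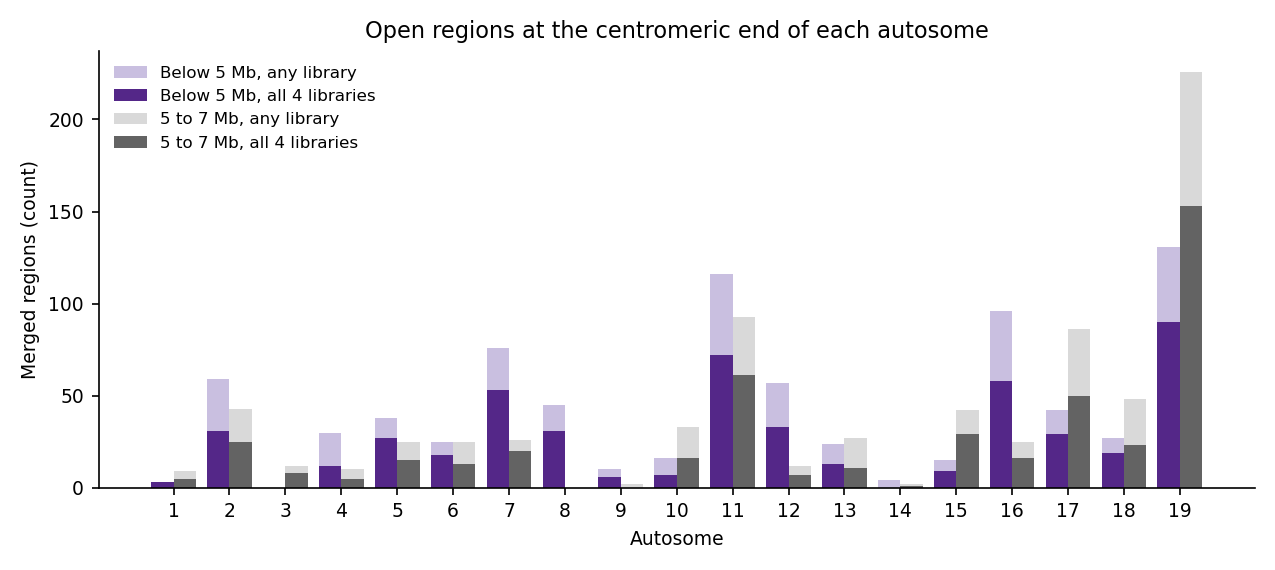
Number of regions on each autosome that start below 5 Mb and from 5 to 7 Mb. Chromosomes 19, 11 and 16 hold the most proximal regions (131, 116 and 96) and chromosome 3 holds none.

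Gene names were read only from the order of named genes in another assembly, GRCm38.p6, and no region was assigned to a gene. In that order chromosome 19 opens with Ighmbp2, Mrpl21, Cpt1a, Tesmin and Gal. Cpt1a encodes the carnitine palmitoyltransferase that admits fatty acids to mitochondria, and Gal encodes the neuropeptide galanin. Chromosome 8 opens with Insr, the insulin receptor gene, and chromosome 12 has Dnmt3a, a de novo DNA methyltransferase gene, among its first 5. Chromosome 1 opens with Xkr4, Rp1 and Sox17, a transcription factor gene of endoderm. Chromosomes 4 and 18 open with vomeronasal receptor genes (Vmn1r2 and Vmn1r3, and Vmn1r238), which belong to a large family of near copies expressed in the vomeronasal organ.

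Most proximal regions were found in every library, on G128 and on G2 alike. A region was shared if it had a peak in all 4 libraries. That held for 511 of 814 members (62.8%, Wilson 95% interval 59.4 to 66.0), for 458 of 746 regions from 5 to 7 Mb (61.4%, 57.9 to 64.8) and for 60.5% of all regions. The 3 shares lie close together, and the proximal interval includes the share of all regions. Shared members had a median width of 666 bp and the others were narrower, with medians of 233 bp for regions found only on G2 and 183 bp for mixed patterns. The same order held over all regions (627, 220 and 184 bp) and from 5 to 7 Mb (649.5, 205 and 189 bp).

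Regions with a peak in both G2 libraries and neither G128 library numbered 71 (8.72%, 6.97 to 10.9). From 5 to 7 Mb there were 43 (5.76%, 4.31 to 7.67), and over all regions the share was 8.32%. The proximal share is near that background, and its interval overlaps that of the inner windows. The proximal share was 3.44% with equal numbers of peaks per list. With a library left out the pattern asks for fewer libraries, so the share tends to rise in any set of regions. It was then 10.2% without G128 replicate 1, 17.4% without G128 replicate 2, 14.0% without G2 replicate 1 and 15.4% without G2 replicate 2. No share over all regions is set beside these values. The reverse pattern, both G128 libraries and neither G2 library, was found in 4 members (0.491%, 0.191 to 1.26), in 5 regions from 5 to 7 Mb (0.670%) and in 0.370% of all regions. Intervals cover counting error only. A further 67 members (8.23%, against 9.48% of all regions) were missed only by G128 replicate 1, the library with the fewest peaks. Those found in a single library numbered 118 (14.5%, against 15.5% of all regions).

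The regions of a single group were weak. The strongest found only on G2, at chr19:4430307-4430555, stood at 41.8 and 41.6 times the background on G2. At chr7:3287197-3287511 the G2 values were 41.8 and 39.5. The strongest found only on G128, at chr5:4486033-4486296, had 28.5 and 34.7, and the other 3 lay at chr4:3127145-3127327, chr4:3011286-3011638 and chr16:3236704-3236875. All of these fell below the median shared member, and a missing peak says only that the caller's threshold was not passed in that library.

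Peaks in the proximal windows numbered 601 and 691 on G128 and 763 and 739 on G2. Both G2 libraries had more than both G128 libraries, with means of 751 ± 17 and 646 ± 63.6 (SD, n = 2 each), a ratio of 1.16. The two-sided exact permutation test over the 6 assignments gave p = 0.333, the smallest p this design allows. The lists as a whole differed in the same direction. As a share of its list, each library placed 1.85% and 1.83% (G128) and 1.80% and 1.78% (G2) of its peaks there, a difference of -0.0508 percentage points (G2 minus G128, exact permutation p = 0.333). From 5 to 7 Mb the counts were 550, 638, 693 and 662, a ratio of 1.14.

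Per library, the caller's −log10 p-value (the authors' own value, which ranks peaks within a list) was slightly higher in the proximal windows. The median proximal peak stood at percentile 55.3 and 53.7 of its list on G128 and 54.1 and 54.4 on G2. From 5 to 7 Mb the medians stood at 52.6, 49.9, 50.8 and 50.4. The proximal median was the higher in 4 of 4 libraries, by 3.46 ± 0.586 percentile points (mean and SD over 4 libraries). Among peaks above the median of their list the gap turned, to -0.881 points. Median peak widths gave no such order. They were 408, 392, 369 and 422 bp in the proximal windows and 385.5, 373, 381 and 429 bp in the inner ones, wider proximally in both G128 libraries and narrower in both G2 libraries.

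**Figure D2:**
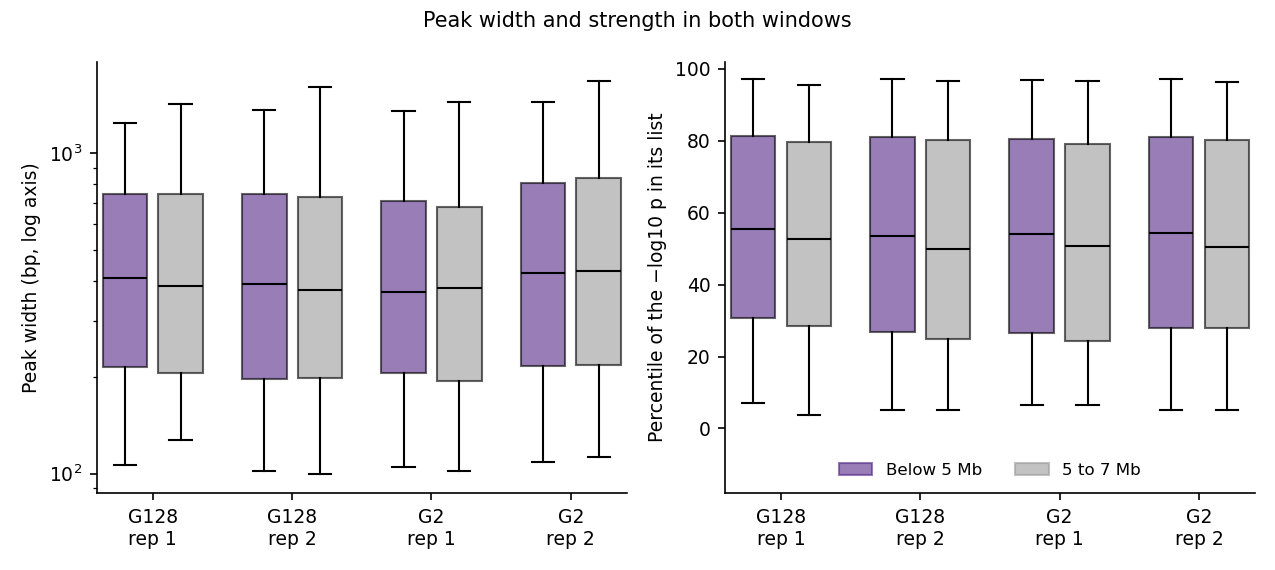
Width in bp and list percentile of the −log10 p-value for the peaks of each library, below 5 Mb and from 5 to 7 Mb. Boxes span the quartiles, lines mark medians and whiskers run from the 5th to the 95th percentile, and the median percentile is 49.9 to 52.6 inward and 53.7 to 55.3 proximally.

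Some proximal sites were among the strongest of their lists. A peak in the strongest 10% of all 4 lists was found in 90 of the 511 shared members (17.6%), in 70 of 458 shared regions from 5 to 7 Mb (15.3%) and in 10.9% of all shared regions. The member with the best worst rank, chr17:3081385-3085071, is 3687 bp wide and had summits of 807 and 1008 times the background on G128 and 1092 and 1134 on G2. Its values rose with the general shift and its relative difference was -0.03. On chromosome 19, chr19:4509804-4510919 had 510, 634, 665 and 756 in the same order of libraries, and chr6:3150719-3151718 had 380, 495, 485 and 567. Both also lay close to 0 relative to the shift (-0.01 and -0.06).

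The members of greatest width were not all strong. After the first region of chromosome 9 (38495 bp) and the chromosome 17 region above, the widest was chr5:3341174-3344834 (3661 bp), with summits of 91.1, 116, 146 and 129 in the order G128 replicates 1 and 2, then G2 replicates 1 and 2. The region chr19:3322329-3325783 (3455 bp) had 152, 160, 201 and 203. Neither was called different.

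Summit heights were then compared between G2 and G128 in the shared regions by limma, with a variance trend and Benjamini-Hochberg adjustment over all 27768. Of these, 1.47% were called at an adjusted p of 0.05, with 0.601% higher and 0.864% lower on G2. Among the 511 shared members 14 were called (2.74%), 4 higher and 10 lower, and from 5 to 7 Mb 4 of 458 were, 2 in each direction. Without centring on the general shift the balance turned: 156 members were called, 152 higher and 4 lower, as were 26.8% of all shared regions. The other 303 members lacked a peak in at least 1 library and were not tested. The median difference was 0.03 over the members, -0.01 from 5 to 7 Mb and 0.01 over all shared regions.

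These calls rest on a setting chosen after results had been seen. The first fit, limma without a trend, called 0 of 27768 regions, members included, and 75 members (14.7%) had an unadjusted p under 0.05, as did 14.2% of all shared regions. Fits with and without the trend and with and without robust shrinkage were then compared, and the one with the trend alone was kept because its counts matched an earlier analysis of these data. With the trend, 83 members (16.2%) had an unadjusted p under 0.05, as did 15.0% of all shared regions. Robust shrinkage with the trend called 12 (2.35%, against 1.29% of all shared regions), all among the 14. It lost those on chromosomes 9 and 12 (limma adjusted p = 0.50 and 0.51). With either G2 library left out fewer were called, among the members and over all shared regions alike. Without G128 replicate 2 more were called in both. Without G128 replicate 1 fewer members were called, but more of all shared regions.

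Each of the 14 calls was lost under some setting. Those on chromosomes 9 and 12 held with any single library left out. The others held less often: without G128 replicate 1 the calls at chr2:3135380, chr2:3156543, chr4:3865158 and chr16:4641562 held beside them, 6 of 14 in all. Without G128 replicate 2 the calls at chr2:3135380, chr4:3865158 and chr16:4641562 were the ones lost, which left 11. Without G2 replicate 1 only chr2:3135380 held beside chromosomes 9 and 12, and without G2 replicate 2 only chr2:3156543 and chr6:4873728 did.

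The first region of chromosome 9, chr9:2999951-3038445, was lower on G2. It covers the first 38.5 kb of the assembled chromosome, and its summits were 1323 and 875 times the background on G128 and 791 and 684 on G2. Both G2 libraries were below both G128 libraries, though the G128 libraries lay further apart from each other than G128 replicate 2 lay from G2 replicate 1. The relative difference was -0.88 on the log2 scale (SE 0.12, limma adjusted p = 4.76e-05). It was -0.48 without G128 replicate 1 and -1.28 without G128 replicate 2. In G2 replicate 2 the region was split into a pair of peaks, at 2999952-3005374 and 3005520-3038440, with summits of 684 and 610, and in the other libraries it was 1 peak.

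The first region of chromosome 12, chr12:3109833-3110145, is only 313 bp wide and was lower on G2 by a like amount. Its summits were 453 and 287 on G128 and 267 and 213 on G2. As on chromosome 9, G128 replicate 1 was the highest and G2 replicate 2 the lowest library. The relative difference was -0.93 (SE 0.14, limma adjusted p = 0.000179), or -0.50 without G128 replicate 1 and -1.37 without G128 replicate 2. The region next to it, chr12:3110548-3111020, had 26.6, 32.6, 45.5 and 59.9 and a difference of 0.50 the other way, which was not called (limma adjusted p = 0.212).

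Weaker sites near the starts of chromosomes 2, 4 and 17 were also lower on G2. At chr2:3156543-3156995 the summits were 37.0 and 38.3 on G128 and 22.7 and 25.6 on G2 (-0.97, SE 0.21, limma adjusted p = 0.00920). At chr4:3016704-3017525 they were 51.2 and 34.7 against 26.4 and 29.2 (-0.93, limma adjusted p = 0.0177), and without G128 replicate 1 the difference was -0.55 and not called (adjusted p = 0.259). In both places the groups did not overlap. At chr17:3029714-3030034 they were 40.8 and 34.7 against 30.0 and 24.1 (-0.82, limma adjusted p = 0.0364). At chr2:3059104-3059457 they were 55.0 and 58.1 against 41.8 and 42.4 (-0.76, limma adjusted p = 0.0214). These groups were separate too, before and after the general shift was taken out. Over all shared regions, G2 lay lower without overlap in 2.79% before and 21.9% after. Called regions were picked by their difference, so their separation is no further evidence.

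For 3 lower calls the difference was small before the general shift was taken out, at -0.24, -0.26 and -0.20 in the order given here. At chr18:3004800-3006046, the first region of its chromosome, the summits were 95.8 and 92.8 on G128 and 76.4 and 83.3 on G2 (-0.57, limma adjusted p = 0.0349). At chr2:3135380-3136300 they were 73.0 and 87.9 against 76.4 and 58.5 (-0.59, limma adjusted p = 0.0458), and without G2 replicate 2 the difference was -0.38 (adjusted p = 0.575). At chr16:4641562-4642698 they were 131 and 192 against 138 and 137 (-0.53, limma adjusted p = 0.0209). The groups overlapped at the chromosome 2 and chromosome 16 regions unless each library was centred on its median. The remaining lower call, chr6:4873728-4874247, had 86.3 and 76.5 against 56.4 and 70.9 (-0.69, limma adjusted p = 0.0208).

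Of the 4 members called higher on G2, 3 were on chromosome 19, and none started below 3.2 Mb. At chr19:3765089-3765617 the summits were 20.9 and 36.1 on G128 and 66.4 and 61.4 on G2 (0.89, SE 0.20, limma adjusted p = 0.0141). G128 replicate 1 was near the lowest value its list could hold there, and without that library the difference was 0.59 and not called (adjusted p = 0.105). At chr19:4441507-4442284 they were 33.2 and 46.1 against 71.9 and 85.5 (0.67, limma adjusted p = 0.0372), and at chr19:4244806-4245502 they were 51.2 and 60.9 against 104 and 104 (0.57, limma adjusted p = 0.0431). The fourth, chr4:3865158-3866505, was a strong site with 212 and 230 against 372 and 349 (0.38, SE 0.10, limma adjusted p = 0.0484). This call held under 3 of 10 other settings and was lost, among others, with quantile normalization (adjusted p = 0.157). At all 4 the groups were separate before and after centring, as in 67.6% and 23.8% of all shared regions with G2 higher. The 4 were picked by their difference, so this separation is no further evidence.

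**Figure D3:**
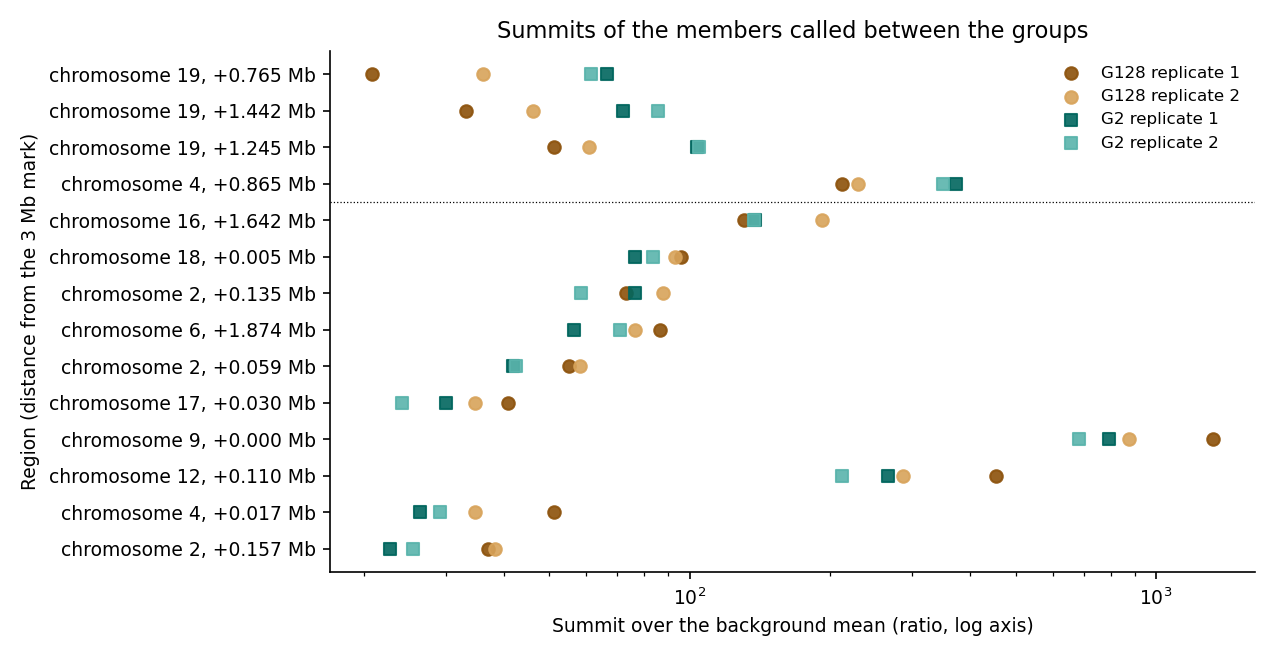
Summit over the background (log axis) in each of the 4 libraries for the 14 members called by limma with a variance trend, each labelled by chromosome and distance from the 3 Mb mark. Values on G2 are lower at 10 and higher at 4 relative to the general shift, and G128 replicate 1 lies highest at the first regions of chromosomes 9 and 12 (1323 and 453).

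Most of the lower calls, 8 of 10, lay close to the assembled starts. Members that start below 3.2 Mb comprised 27 shared regions on 10 chromosomes, with a median difference of -0.40. Of the 27, 23 lay below 0 (85.2%, against 47.8% of all shared regions). Of the 27, 8 were called, all lower (29.6%, against 0.864% called lower of all shared regions). From 3.2 Mb on 6 of the 484 shared members were called (1.24%, 4 higher and 2 lower), and the median of the 484 was 0.04. The edge at 3.2 Mb was picked after the differences had been seen in bins of distance, so these counts are a description and were not tested. Within the first 0.1 Mb 12 of 12 shared members lay below 0 (median -0.56), and in the next 0.1 Mb 11 of 15 did (median -0.14). From 3.2 to 3.5 Mb it was 40 of 82.

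Whether the groups overlapped was also counted, which needs no fit. It uses the same summits and the same edge at 3.2 Mb, so it is a description too. Below 3.2 Mb both G2 libraries lay below both G128 libraries in 17 of 27 members (63.0%, against 21.9% of all shared regions) and above them in 3 (11.1%, against 23.8%). Without centring, they lay below in 9 (33.3%, against 2.79%) and above in 8 (29.6%, against 67.6%). In the other 10 the groups overlapped on the uncentred scale. Leaving out chromosome 9 gave a median of -0.39 with 22 of 26 below 0. Of the 27 members below 3.2 Mb, 0 were called without the variance trend, as over all shared regions. With quantile normalization 2 were called (0.432% of all shared regions were), and with robust shrinkage 6 (1.29% of all). All of these were lower, as were the calls there with a library left out. Without centring 7 of the 27 were called, 4 lower and 3 higher. Over all 27768 shared regions 26.8% were then called, 61 lower and 7384 higher.

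**Figure D4:**
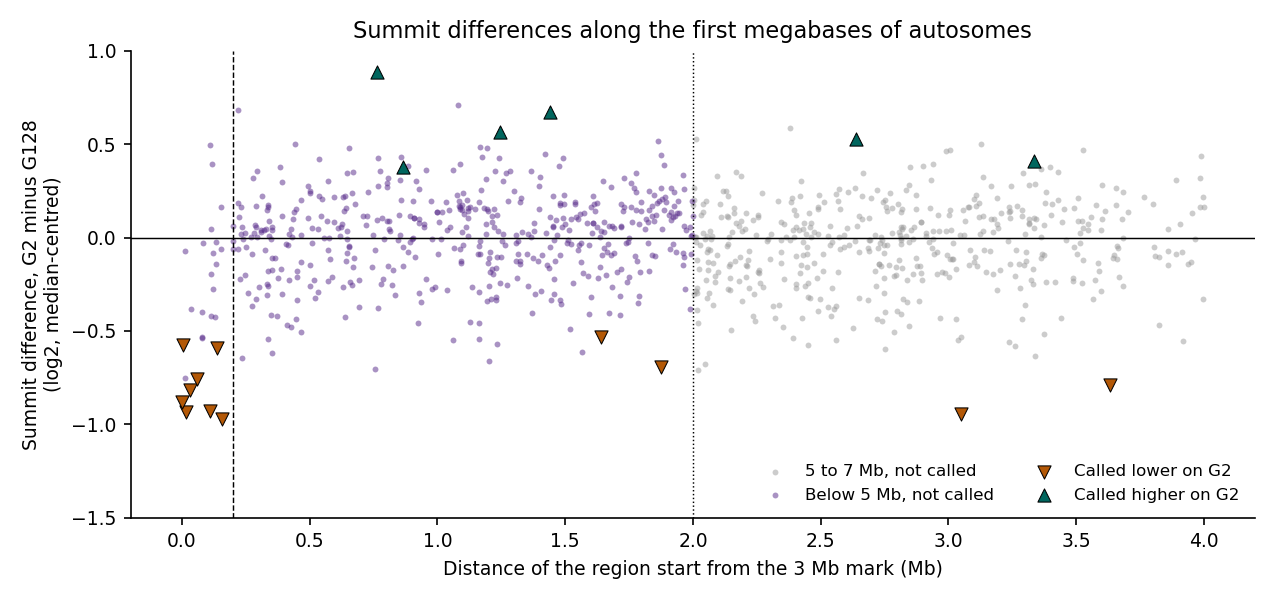
Difference in summit height (log2, G2 minus G128, median-centred) of each shared region against the distance of its start from the 3 Mb mark, with the 3.2 Mb and 5 Mb edges as vertical lines. In the first 0.2 Mb 23 of 27 points lie below 0 (85.2%, against 47.8% of all shared regions). There 8 are called lower (29.6%, against 0.864%), and called regions are sparse further in.

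Peaks were also counted near the starts. Below 3.2 Mb the libraries had 42 and 38 peaks on G128 and 41 and 42 on G2, a ratio of 1.04 (exact permutation p = 1), so the groups overlapped. From 3.2 Mb to the edge at 5 Mb they had 559 and 653 on G128 and 722 and 697 on G2, a ratio of 1.17 (exact permutation p = 0.333), beside 1.14 in the inner windows and 1.20 over the whole lists. Whether the ratios differ was not tested. The background means overlapped between the groups, whereas the lengths of the lists did not, and the part of list length in these values was not tested.

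**Figure D5:**
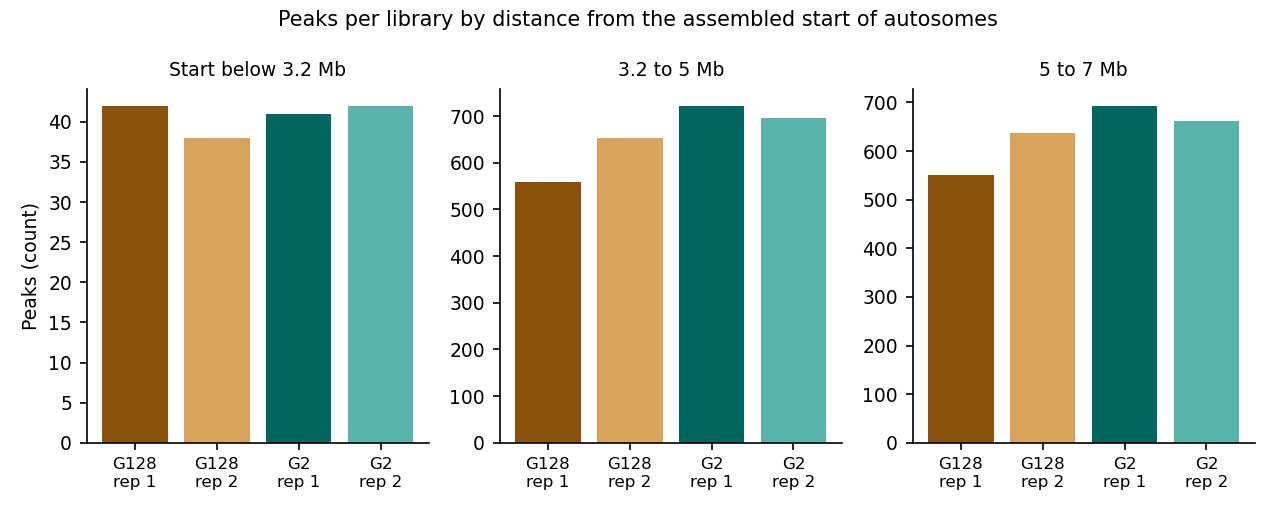
Peaks per library that start below 3.2 Mb, from 3.2 to 5 Mb and from 5 to 7 Mb of the autosomes, with bars from 0. G2 libraries have more peaks in the last 2 panels, and below 3.2 Mb the counts run from 38 to 42 in no order by group.

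The edge of the windows at 5 Mb fell between regions of ordinary strength. The nearest members inside it were chr19:4999443-4999786, found only on G2 with 20.9 and 25.6, chr11:4998200-5000572 with 150, 194, 240 and 225, and chr17:4997332-4997594 with 31.3, 25.5, 43.7 and 38.0. Just outside lay chr19:5001443-5002465 with 232, 301, 388 and 363, chr7:5002801-5002895 in G2 replicate 2 alone, and chr7:5003022-5003760 with 48.4, 68.0, 80.0 and 86.2. None of the 4 that were shared was called, and the other two were not tested.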

How the data were processed

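ATAC-seq peak lists of 4 NIH3T3 libraries were used, 2 on G128 and 2 on G2, grouped by their labels. Per the submitters' processing notes, the tools included Bowtie2 2.2.5, SAMtools 1.7 and Genrich 0.5 and the build was mm9. Settings and the treatment of repeats and duplicates are not given in the sources used here. The authors deposited for each peak a score, a signal, −log10 p-value and −log10 q-value, and a summit offset. The deposited score equalled 1000 times the signal over the width, capped at 1000, in 100% of peaks. Peaks had been called per library.

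Peaks sharing 1 bp were merged into regions. Summit pileups and the background mean, which stands for depth, were recovered as whole numbers from the lowest 100 distinct p-values of each list. Shares carry Wilson intervals. Library values were compared by exact permutation over 6 assignments. Summits (log2, median-centred) were fitted with limma 3.58.1 in R 4.3.3 on all shared regions. The fit was also run on simulated summits of a single fixed dispersion, which cannot decide between the variance settings for these data. The limma variance trend was chosen after fits without it had called nothing, and it gave the counts of an earlier analysis. Other steps used pandas 2.3.3, scipy 1.17.1 and numpy 2.4.6 under Python 3.11.15.

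The members and lists were chosen with earlier results of these data known, and the 3.2 Mb edge after their differences were seen. Regions named were, by rule, the 10 strongest and 10 widest members, the strongest of each single-group pattern, called members (where over 10, the 5 of largest change in each direction), those at the 5 Mb edge and the first of each chromosome, and values are given for a part of them. All 14 called members are named, as is chr12:3110548-3111020, which was chosen after its values were seen. Alternatives changed the windows, merging, thresholds, scaling, filters, replicate block and libraries used. No sequence is printed, because no genome of the files' build was used.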

Additional observations from a re-analysis of the deposited data

Results flagged for a closer look

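The stretch of chromosome 11 from 3 to 3.2 Mb, left out of the members, held 47 regions and is noted here as data outside the comparison. Of these 31 were shared, with a median summit difference of -0.36 (log2, G2 minus G128, median-centred), and 26 of the 31 (83.9%) lay below 0, against 47.8% of all shared regions. By limma with a variance trend 4 (12.9%) were called lower, against 0.864% of all shared regions, and 0 higher, while 17 (54.8%, against 15.0%) had an unadjusted p under 0.05. Without the trend limma called none in the whole table. Among its regions, chr11:3091822-3094870 had summits of 949 and 1062 times the background on G128 and 1255 and 1235 on G2, and was not called.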

How the results depend on the processing

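Over the values that answer a comparison, 73 alternatives left the result in place, 44 moved it and 3 turned its direction; for single called regions 67 kept the call, 70 lost it and none reversed. The limma calls depended most on the settings. Without the variance trend, the fit run first, 0 members were called (0 higher, 0 lower). Without median centring 156 of 511 were (30.5%, 152 higher, 4 lower), against 26.8% of all 27768 shared regions. With quantile normalization 3 were (0.587%, 0 higher, 3 lower), against 0.432% of all shared regions. Among regions whose summits averaged 40 or more 7 of 389 were (1.80%, 1 higher, 6 lower), against 1.18% of all such regions. Of the 225 shared members starting below 4 Mb 10 were called (4.44%), 2 of them higher. Below 3.2 Mb 8 of 27 were called (29.6%) and 0 were higher, against 1.47% called of all shared regions. With a library left out, 4 to 21 were called, 0 to 8 higher and 4 to 13 lower. A group of 1 library is then assumed to vary like the other. Calls over all shared regions moved too: they fell without either G2 library and rose without either G128 library. The spread of the member counts is therefore not read as particular to the members. The variance trend, robust shrinkage and 3.2 Mb alternatives, and those for these calls without chromosome 9 or with the start of chromosome 11, were chosen after seeing the data. The cause of these changes was not tested.

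The density ratio of 1.10 was 1.00 below 4 Mb, 1.60 against 7 to 9 Mb, 1.20 for peaks above the median −log10 p of their list and 1.15 with the start of chromosome 11 kept (1.09 to 1.11 with a library left out). The width ratio of 1.02 was 0.953 below 4 Mb, a reversal, and 1.14 against 7 to 9 Mb. The percentile difference of 3.46 was 2.07, 5.09, -0.881 (a reversal) and 2.43 under the 4 settings named for density. The share found in all 4 libraries, 62.8%, was 66.1% with peaks within 200 bp merged and 71.1% above the median. It was 70.4% with the 32540 strongest peaks of each list and 67.5% for peaks of at least 200 bp. With a library left out 65.1 to 71.7% were found in every library kept, a looser rule. The G2-only share of 8.72% was 6.94% above the median and 3.44% with equal numbers of peaks. It was 10.2 to 17.4% with a library left out, where the pattern asks for fewer libraries. The peak ratio of 1.16 was 0.987 with equal numbers of peaks, also a reversal, and 1.09 to 1.25 with a library left out.

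Deviations of same-numbered libraries correlated at 0.041 over the members and 0.0028 over all shared regions. With so few libraries this cannot tell whether same-numbered libraries were paired, and replicate 1 was the shallower library of both groups. With a replicate block 19 members were called (5 higher, 14 lower). More were called over all shared regions as well, so the rise was not particular to the members. The peak ratio was then 1.17 and the share of the list differed by -0.0508 percentage points (both exact permutation p = 0.5, the smallest possible).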
